A study of Mus musculus with 6 samples.

Results

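The genes described here encode the acid hydrolases of the lysosome and the small proteins that assist them. The list held 36 symbols and was matched by name in a table of RNAseq read counts for 22601 mouse genes, where all 36 were found. They comprise 13 glycosidases and other glycan enzymes, 5 sulfatases, 7 lipases and lipid hydrolases, 5 peptidases other than cysteine cathepsins, 1 phosphatase and 1 nuclease, and 4 activator or lipid-binding proteins. Most of the products are soluble enzymes of the lysosomal lumen. *Hgsnat*, which encodes a multi-pass membrane enzyme, and *Acp2*, made as a membrane-anchored precursor, are exceptions within the list, and *Lgmn* encodes a cysteine protease that is not a cathepsin.

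Lysosomal hydrolases are made in the endoplasmic reticulum, receive mannose 6-phosphate tags in the Golgi and are carried by receptors to acidic compartments, where they break down glycans, lipids, proteins and nucleic acids. Inherited loss of single members of the group causes lysosomal storage diseases. Osteoclasts, the multinucleated cells that resorb bone, direct lysosome-related organelles to the ruffled border facing the bone surface and release their contents there. SLC37A2 belongs by sequence to a family of sugar-phosphate transporters and lies on these secretory lysosomes. The study proposes that it exports the simple sugars glucose and fructose from them.

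The 6 libraries came from 3 wild-type (WT) mice and 3 mice homozygous for the *Slc37a2* tm2a(KOMP) allele, here called *Slc37a2* KO, all on the C57BL/6N background, with columns headed by 11 weeks of age and the letter F. The allele came from 1 gene-trapped embryonic stem cell clone, is germline and was not restricted to a cell type, so any bone marrow cell of these mice carried it. According to the sample labels the RNA is from osteoclasts formed from bone marrow macrophages (BMMs) over 5 days with 10 ng/ml RANKL, the osteoclast-inducing cytokine, and 2 ng/ml M-CSF, the macrophage growth factor. The RNAseq methods of the study instead describe whole-bone RNA of femurs and tibias from mice of both sexes, and no sex was read from the letter F. Libraries are named by the animal number in the column headings, K090, L080 and L082 for WT and K089, L078 and L081 for *Slc37a2* KO, and values in each library are given in that order. Totals ran from 27552183 to 42522292 counts per library. Levels are scaled CPM, counts relative to the library total after TMM scaling, a correction for library composition.

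The labels were checked against the targeted gene and against cell type markers. *Slc37a2* stood at 2149 ± 292 CPM in WT and 38.1 ± 6.66 CPM in *Slc37a2* KO (SD, n = 3), a log2 fold change of −5.82 (standard error 0.20, Benjamini-Hochberg adjusted p = 7.07e-04 by the quasi-likelihood test of edgeR). It was the single gene called among 13483 tested, or 0.00742%. The 13 osteoclast markers summed to between 42826 and 74871 unscaled CPM and the 8 macrophage markers to between 4073 and 4456, with no marker of either list at 0. The 12 stromal and osteoblast markers summed to 2062 CPM or less, neutrophil markers to 1.40 or less, B lymphoid markers to 0.282 or less and red cell markers to 0.0674 or less. The count table held 6 of 8 neutrophil, 3 of 5 B lymphoid and 1 of 6 red cell markers, so the last sum rests on 1 gene. Library L078 of *Slc37a2* KO stood apart from K089 and L081 on the first principal component, which held 57.8% of the variance, and lay on the side of WT K090 and L080. WT L082 in turn lay on the side of K089 and L081, so this component did not divide the libraries by genotype. Positions on it were −24.7, −22.4 and 9.78 in WT and 40.1, −34.3 and 31.6 in *Slc37a2* KO.

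Many lysosomal genes carry in their promoters a short palindrome that MiT-TFE transcription factors bind. Promoters of 300 bases, from 250 before to 50 after the annotated start, were taken from RefSeq on GRCm38.p6 for 31 of the 36 genes. *Aga*, *Hgsnat*, *Galns*, *Asah1* and *Plbd2* had no entry. The core CACGTG, which reads alike on both strands, was present in 9 of the 31 genes (29%), against 11.5% of 10609 tested genes with a promoter and 8.09% of all 27025 genes in the promoter table. The longer TCACGTGA, which contains the core, was present in 3 of 31 genes (9.68%), against 2.16% of the tested genes and 1.12% of all genes. In every one of the 9 the core carried at least 1 of the flanking bases, as TCACGTG or CACGTGA. That form was found in 6.83% of the tested genes.

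One 30-base window around each match in these 9 genes is printed to show where the letters lie. Capitals mark the palindrome with the flanking T or A that belongs to the longer form, each window reads 5′ to 3′ on the strand of the gene, and base positions are on GRCm38.p6. 
Ctsa, upstream match, chr2:164833749-164833778, plus strand: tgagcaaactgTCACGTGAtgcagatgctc
Ctsa, downstream match, chr2:164833766-164833795, plus strand: gatgcagatgcTCACGTGAccagagctaca
Ctsd, upstream match, chr7:142388048-142388077, minus strand: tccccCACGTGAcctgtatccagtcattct
Ctsd, downstream match, chr7:142387908-142387937, minus strand: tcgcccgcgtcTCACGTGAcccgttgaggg
Gla, upstream match, chrX:134601215-134601244, minus strand: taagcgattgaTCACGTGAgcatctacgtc
Gla, downstream match, chrX:134601182-134601211, minus strand: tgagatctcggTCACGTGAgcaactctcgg
Glb1, chr9:114401018-114401047, plus strand: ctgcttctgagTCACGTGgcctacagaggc
Naglu, chr11:101070009-101070038, plus strand: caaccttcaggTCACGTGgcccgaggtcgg
Gaa, chr11:119267811-119267840, plus strand: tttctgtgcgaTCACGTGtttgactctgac
Lgmn, chr12:102439124-102439153, minus strand: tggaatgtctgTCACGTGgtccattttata
Arsa, chr15:89477423-89477452, minus strand: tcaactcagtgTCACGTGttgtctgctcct
Sgsh, chr11:119355522-119355551, minus strand: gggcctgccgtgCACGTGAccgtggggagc

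*Ctsa*, *Ctsd* and *Gla* are the 3 genes with a full 8-base palindrome, and each of them also has a second match in the same window of 300 bases. The 9 genes with the core had a median log2 fold change of 0.10 between genotypes, from −0.22 to 0.30. The 22 genes without it had a median of 0.10, from −0.25 to 0.43. The ranges of both sets overlapped, and a match describes the sequence, not binding.

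All 36 genes were expressed in every library and passed the filter on low counts. Levels were compared between genes as scaled CPM per kilobase of the principal transcript, over the 6 libraries. All 36 genes had such a transcript, and other genes without one took the length of all their exons. The median of the 36 genes was 66.3 CPM per kb, against 8.04 over the 12857 tested genes with an annotated exon length. All 36 stood above that median and 20 stood in the upper 10%. The highest was *Ctsd*, cathepsin D, the aspartic protease of the lysosome, at 1829 CPM per kb, rank 13 of the 12857 genes. *Psap*, the precursor of the 4 saposins that present sphingolipids to their hydrolases, followed at 1513 CPM per kb (rank 19). *Hexa* (834), *Grn* (794) and *Npc2* (584 CPM per kb) completed the 5 genes among the 100 highest of the 12857. *Galc*, the galactosylceramidase, was lowest at 12.6 CPM per kb (rank 4957), below *Pla2g15* at 17.2 and *Idua* at 17.6. WT L082 had 1440 CPM per kb of *Ctsd*, below the 1541 CPM per kb of *Psap* in WT L080, so the order of the top pair does not hold for every pair of libraries. *Hexa* and *Grn* likewise overlapped across libraries.

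**Figure D1:**
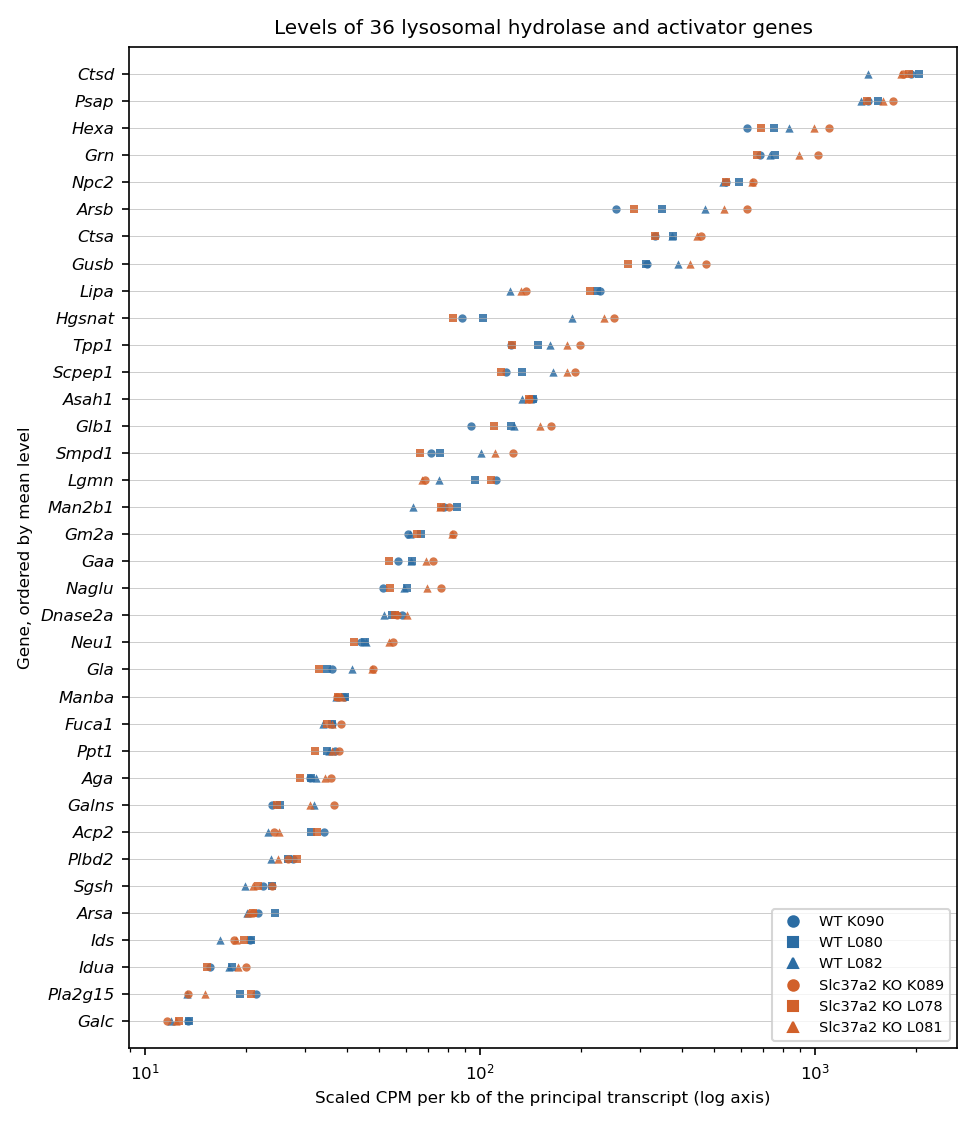
Levels of the 36 genes in scaled CPM per kb of the principal transcript (horizontal log axis), 1 point per library, blue for WT and orange for Slc37a2 KO, with genes ordered by mean level. Single libraries run from 11.6 for Galc in K089 to 2047 for Ctsd in L080, and the points of both genotypes overlap for every gene.

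By counts alone, without regard to length, the 36 genes took 2.15%, 2.32% and 2.11% of all counts in WT and 2.48%, 2.18% and 2.38% in *Slc37a2* KO. The ranges of the 2 genotypes overlapped. In bulk RNA, fewer cells of a type and less RNA per cell cannot be told apart. The 5 genes with the highest mean CPM were *Psap*, *Ctsd*, *Npc2*, *Grn* and *Arsb*. *Psap* stood at 3810, 4094 and 3633 CPM in WT and 4543, 3805 and 4228 CPM in *Slc37a2* KO. *Ctsd* stood at 4119, 4355 and 3063 CPM in WT and 3902, 4061 and 3838 CPM in *Slc37a2* KO. WT L082 was the low library for both genes, and neither gene separated the genotypes. The lowest mean CPM was that of *Aga*, which removes the last sugar from asparagine in glycoprotein breakdown, at 36.6, 37.0 and 38.1 CPM in WT and 42.3, 34.4 and 40.7 CPM in *Slc37a2* KO. *Galc* was next, at 51.7, 51.8 and 45.7 CPM in WT and 44.5, 48.5 and 47.4 CPM in *Slc37a2* KO. The 2 genotypes overlapped in both genes. *Aga* in library L078 had the lowest value of the 6, while *Galc* was lowest in K089.

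The study's comparison asks whether loss of *Slc37a2* changes the osteoclast transcriptome, and it is read here for the 36 hydrolase and activator genes. None was called at a Benjamini-Hochberg adjusted p below 0.05 by the quasi-likelihood test of edgeR (adjusted p from 0.969 to 0.991), and none by its likelihood ratio test or by the Wald test of DESeq2. An unadjusted p below 0.05 was reached by 1 gene in each of these 3 tests, *Gm2a* in the quasi-likelihood test, against 0.712% of all genes there. For 0 of 36 genes did the libraries of the 2 genotypes not overlap, against 4.31% of all genes. The log2 fold change was above 0 for 26 of 36 genes (72.2%), against 43.8% of all genes tested. The median log2 fold change was 0.09 over the 36 genes and −0.02 over all genes, and the extremes were −0.25 for *Lipa* and 0.59 for *Hgsnat*. With 1 library left out, the median of the 36 genes ran from 0.06 without K089 to 0.19 without L078, and it was 0.03 in the 4 libraries whose animal number begins with L.

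What changes the libraries leave room for can be read from the 95% intervals. The interval of the log2 fold change lay inside −1 to 1 for 34 of the 36 genes (94.4%), against 78.4% of all genes. *Hgsnat* and *Arsb* were the exceptions. The interval lay inside −1.5 to 1.5, the fold limit the study used, for 35 genes (97.2%), against 90.7% of all genes. Only the interval of *Gm2a* left out 0. The median standard error was 0.13 and the median biological coefficient of variation 13.2%, against 15.3% over all genes.

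**Figure D2:**
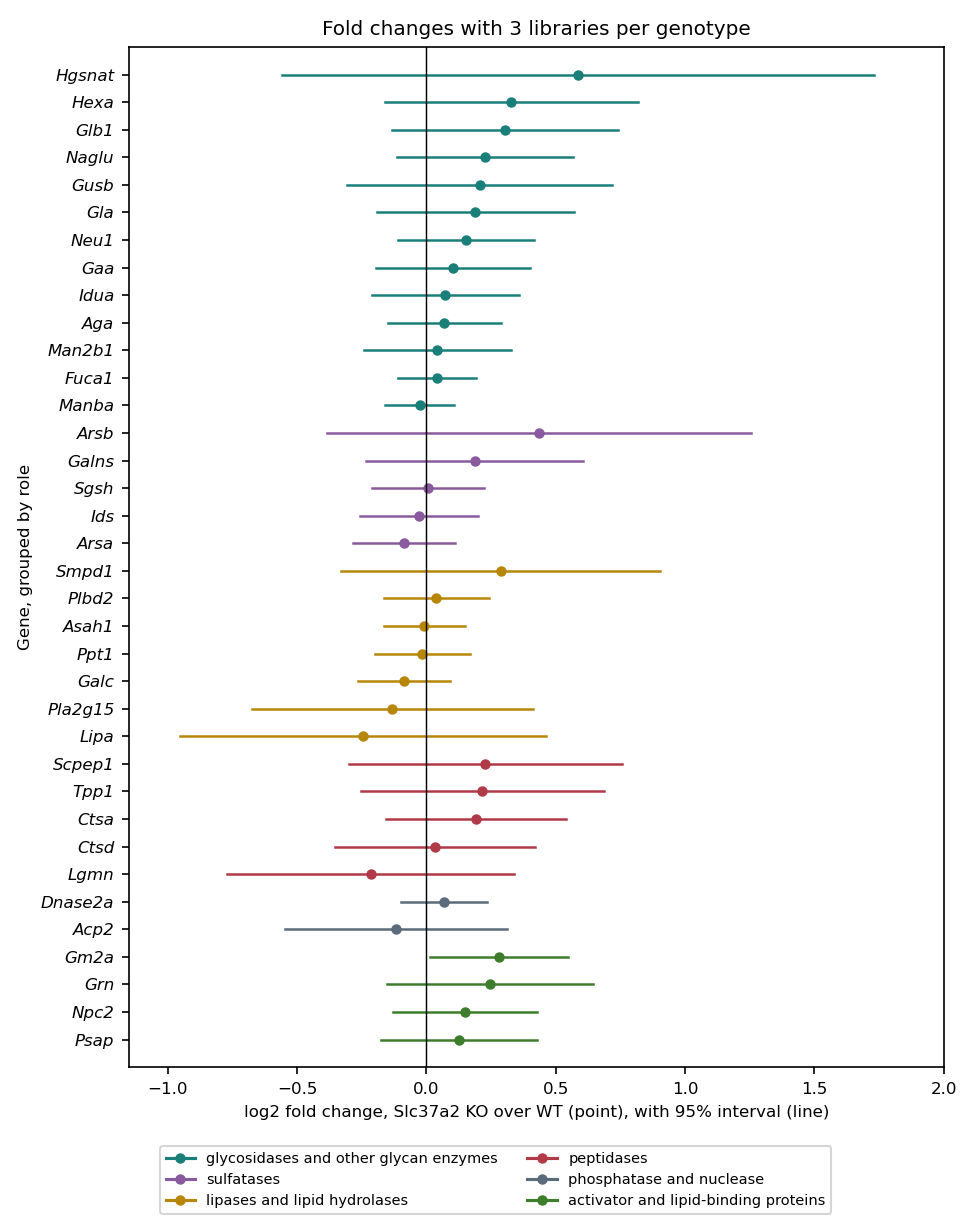
Log2 fold change of each gene, Slc37a2 KO over WT (point), with its 95% confidence interval from edgeR's quasi-likelihood fit (line), coloured and grouped by role. The intervals hold 0 for 35 of 36 genes, the exception being Gm2a, and the widest belongs to Hgsnat (−0.56 to 1.73).

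Among the 13 glycosidases and other glycan enzymes, 12 had a log2 fold change above 0, with a median of 0.15, and none passed the test. *Hexa*, the alpha subunit of the beta-hexosaminidase that removes N-acetylgalactosamine from GM2 ganglioside, stood at 1253, 1508 and 1668 CPM in WT and at 2203, 1376 and 1981 CPM in *Slc37a2* KO. The means were 1476 ± 209 and 1853 ± 428 CPM (SD, n = 3), with a log2 fold change of 0.33 (95% interval −0.16 to 0.82). K089 and L081 lay above all WT libraries, while L078 lay below 2 of them. *Glb1*, the beta-galactosidase, showed the same layout, at 225, 296 and 302 CPM in WT and 390, 264 and 362 CPM in *Slc37a2* KO (log2 fold change 0.30, 95% interval −0.13 to 0.74). *Naglu*, an N-acetylglucosaminidase of heparan sulfate breakdown, stood at 131, 155 and 152 CPM in WT and 196, 138 and 178 CPM in *Slc37a2* KO (log2 fold change 0.23, 95% interval −0.11 to 0.57). In each of these 3 genes K089 was the highest library and K090 the lowest.

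*Hgsnat*, the acetyltransferase that modifies heparan sulfate at the lysosomal membrane before *Naglu* acts on it, had the largest fold change and the largest spread of the 36 genes, with a coefficient of variation of 48.3% over the 6 libraries. It stood at 237, 275 and 507 CPM in WT and 677, 223 and 630 CPM in *Slc37a2* KO, where 340 ± 146 and 510 ± 250 CPM (SD, n = 3) are the means. The log2 fold change was 0.59 with a standard error of 0.47. The WT libraries alone differed 2.14-fold and the *Slc37a2* KO libraries 3.03-fold, more than the 1.5-fold ratio of the means. L078 was the lowest library of all, and L082 was the WT library nearest to the high pair of *Slc37a2* KO.

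The remaining glycan enzymes had smaller differences. *Gusb*, the beta-glucuronidase, had a log2 fold change of 0.21 and *Gla*, the alpha-galactosidase that is lost in Fabry disease, of 0.19. *Neu1*, the sialidase, had 0.15 and *Gaa*, the glucosidase that degrades glycogen, had 0.10. *Idua*, which removes iduronic acid from dermatan and heparan sulfate, and *Aga* had 0.07 each. *Man2b1*, an alpha-mannosidase, and *Fuca1*, the fucosidase, had 0.04 each. *Manba*, the beta-mannosidase, was the 1 member of the set below 0, at −0.03. *Manba* had the smallest coefficient of variation of all 36 genes (2.69%), at 145, 145 and 136 CPM in WT and 138, 138 and 142 CPM in *Slc37a2* KO. *Fuca1* ranked among the 3 steadiest as well (4.18%), at 91.3, 91.5 and 85.9 CPM in WT and 97.1, 88.1 and 91.2 CPM in *Slc37a2* KO. Both genes had all 6 libraries close together, with no order by genotype.

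The 5 sulfatases, which remove sulfate groups from glycosaminoglycans and sulfolipids, had a median log2 fold change of 0.01, and 3 of 5 were above 0. *Arsb*, arylsulfatase B, which acts on dermatan and chondroitin sulfate, was by far the most abundant, at 421 CPM per kb against 29 for the next, *Galns*. It stood at 1031, 1407 and 1898 CPM in WT and 2533, 1165 and 2159 CPM in *Slc37a2* KO, with a log2 fold change of 0.43 (95% interval −0.39 to 1.25). K089 and L081 were above every WT library and L078 was below all but K090. *Galns*, which acts on keratan sulfate, had a log2 fold change of 0.19 and *Sgsh*, which removes N-linked sulfate from heparan sulfate, of 0.01. *Ids*, the iduronate sulfatase, had −0.03 and *Arsa*, which acts on the sulfatides of myelin, had −0.09.

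Of the 7 lipases and lipid hydrolases, 2 had a log2 fold change above 0 and the median was −0.02. *Smpd1*, the acid sphingomyelinase, stood at 172, 183 and 243 CPM in WT and 302, 159 and 267 CPM in *Slc37a2* KO (log2 fold change 0.29, 95% interval −0.33 to 0.90). *Lipa*, the acid lipase that frees cholesterol from its esters, was the lowest of the 36 by fold change and had the largest spread of this set. It stood at 676, 662 and 365 CPM in WT and 408, 634 and 393 CPM in *Slc37a2* KO (log2 fold change −0.25, 95% interval −0.95 to 0.46). Its pattern over the libraries was the mirror of that of *Smpd1*, with L082, K089 and L081 low and K090, L080 and L078 high. *Pla2g15*, the lysosomal phospholipase A, followed *Lipa*, at 58.1, 52.0 and 36 CPM in WT and 36.5, 55.9 and 40.9 CPM in *Slc37a2* KO, with a log2 fold change of −0.13. *Asah1*, the acid ceramidase, was instead among the 3 steadiest genes (coefficient of variation 2.84%), at 400, 399 and 370 CPM in WT and 389, 388 and 385 CPM in *Slc37a2* KO. Its log2 fold change was −0.01. *Galc* had −0.09, *Ppt1*, which removes palmitate from proteins, had −0.02, and *Plbd2*, a phospholipase B-like protein, had 0.04.

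Among the 5 peptidases 4 had a log2 fold change above 0, with a median of 0.19. *Scpep1*, a serine carboxypeptidase, had 0.23 and *Tpp1*, the tripeptidyl peptidase lost in a form of Batten disease, had 0.22. *Ctsa*, the carboxypeptidase that also binds and protects *Glb1* and *Neu1* products, had 0.19. *Ctsd* had 0.03 (95% interval −0.36 to 0.42). *Lgmn*, legumain, which cleaves after asparagine and matures other lysosomal proteases, had −0.22. The phosphatase *Acp2* had −0.12 and *Dnase2a*, which digests DNA in acid, had 0.07.

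All 4 activator and lipid-binding genes had a log2 fold change above 0, with a median of 0.20. *Gm2a*, the cofactor that lifts GM2 ganglioside out of the membrane for the *Hexa* product, had the smallest unadjusted p of the 36 genes. The gene lies at chr11:55098115-55113029 on the plus strand of GRCm38. It stood at 252, 275 and 255 CPM in WT and 342, 267 and 339 CPM in *Slc37a2* KO, with means of 260 ± 12.5 and 316 ± 42.4 CPM (SD, n = 3). L078 lay within the WT range and the other *Slc37a2* KO libraries above it. The log2 fold change was 0.28 (95% interval 0.01 to 0.55), and the quasi-likelihood test of edgeR gave an unadjusted p of 0.043 and a Benjamini-Hochberg adjusted p of 0.969. Over the alternative fits, each library left out included, its adjusted p ran from 0.227 to 1.00 in edgeR and DESeq2. *Grn*, progranulin, the precursor of granulins and a binding partner of the *Psap* product, stood at 1605, 1780 and 1714 CPM in WT and 2380, 1571 and 2099 CPM in *Slc37a2* KO (log2 fold change 0.25, 95% interval −0.15 to 0.65). *Npc2*, which carries cholesterol in the lumen, stood at 1786, 1951 and 1747 CPM in WT and 2154, 1786 and 2138 CPM in *Slc37a2* KO (log2 fold change 0.15, 95% interval −0.13 to 0.43). *Psap* had a log2 fold change of 0.12. In *Gm2a*, *Grn*, *Npc2* and *Psap* alike, K089 was the highest library.

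The spread between libraries of 1 genotype was read from single libraries. The highest over the lowest library had a median of 1.2-fold over the 36 genes in WT and 1.33-fold in *Slc37a2* KO. It exceeded the ratio of the genotype means in both genotypes for 30 genes (83.3%), close to the 83.9% of all genes, so this count is no feature of the 36. *Hgsnat*, *Arsb* and *Lipa* had the largest coefficients of variation over the 6 libraries, 48.3%, 35.0% and 28.4%. A median of 14.2% of a gene's variance lay between genotypes, against 11.7% over all genes. With 3 libraries per genotype such a share is above 0 even without an effect of genotype, so neither value measures that effect.

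**Figure D3:**
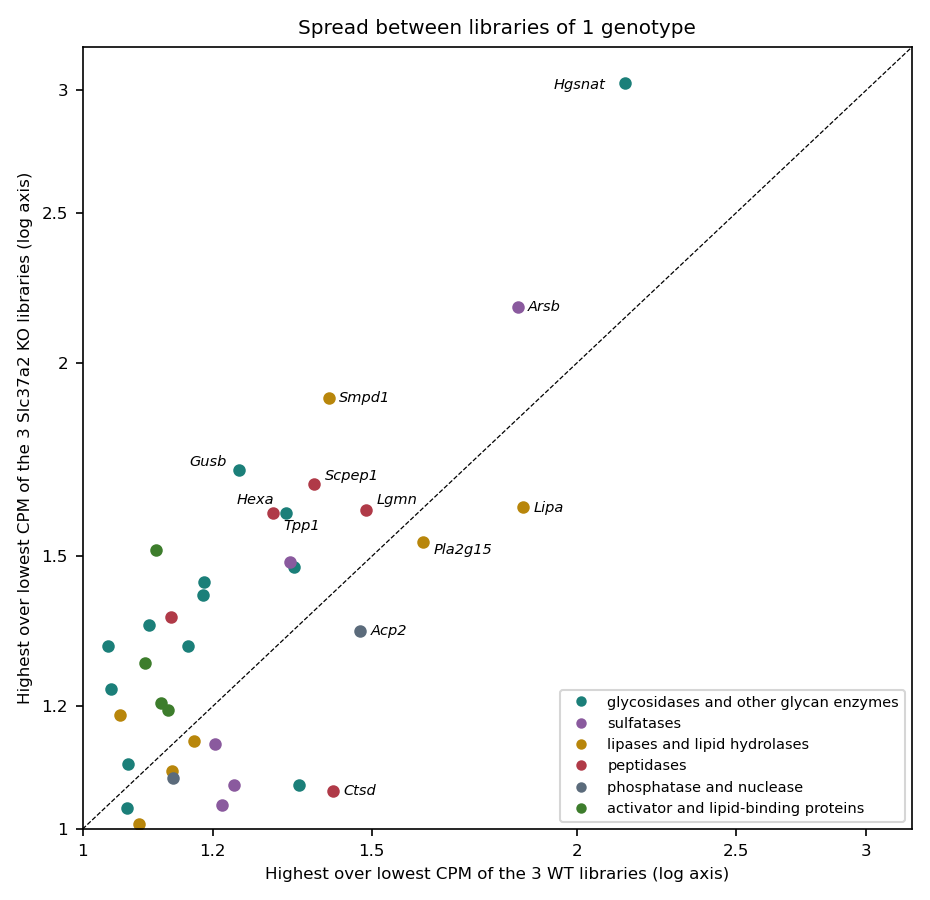
Highest over lowest scaled CPM among the 3 WT libraries (horizontal log axis) and among the 3 Slc37a2 KO libraries (vertical log axis) for each of the 36 genes, coloured by role, with a dashed line of equal spread. Hgsnat is farthest out, at 2.14-fold in WT and 3.03-fold in Slc37a2 KO, and the medians are 1.2-fold and 1.33-fold.

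The spread had a shared layout. K089 was the highest of the 3 *Slc37a2* KO libraries for 25 of 36 genes (69.4%), against 33.4% of all genes, and L078 was the lowest for 23 (63.9%), against 40.8%. Over all 6 libraries K089 was highest for 22 of the 36 genes, against 22.6% of all genes. L082 was lowest for 15 (14.3% of all genes) and L078 for 11 (21% of all genes). Relative to each gene's own mean, the median log2 level of the 36 genes was −0.09, −0.01 and −0.06 in WT and 0.17, −0.13 and 0.11 in *Slc37a2* KO. The median over all genes stayed between −0.02 and 0.02. Genes differed in this order. In *Hexa*, *Glb1*, *Arsb*, *Hgsnat* and *Smpd1*, L078 was the lowest *Slc37a2* KO library, and in *Lipa* and *Pla2g15* it was the highest.

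**Figure D4:**
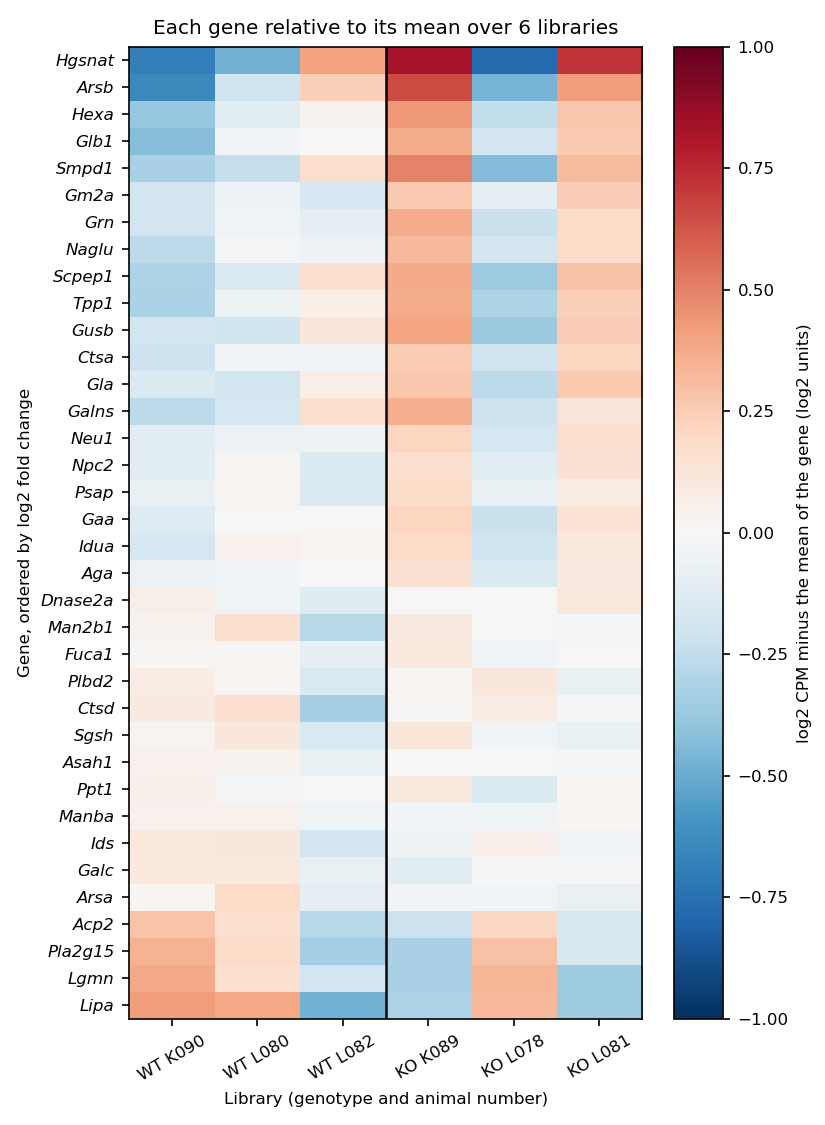
Log2 scaled CPM of each of the 36 genes in each library minus the mean of that gene over the 6 libraries (colour, in log2 units), with genes ordered by log2 fold change and the genotypes divided by a line. K089 and L081 are mostly red and L078 is mostly blue in the upper genes, with the reverse for Lipa, Lgmn and Pla2g15 at the bottom.

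Other gene lists also differed between these libraries. The same median over the 13 osteoclast markers was −0.37, −0.11 and 0.06 in WT and 0.42, −0.30 and 0.27 in *Slc37a2* KO, so that K089 was highest and L078 lowest of the *Slc37a2* KO libraries here too. Over the 8 macrophage markers it was 0.77, 0.61 and −0.65 in WT and −0.81, 0.53 and −0.40 in *Slc37a2* KO, and over 10 proliferation markers 0.44, −0.02 and 0.03 in WT and −0.58, 0.40 and −0.24 in *Slc37a2* KO. All 10 proliferation markers had a log2 fold change below 0, with a median of −0.26, and none was called. The largest shift was that of 12 interferon response genes, at 1.73, 0.68 and −1.04 in WT and −1.74, 1.04 and −0.63 in *Slc37a2* KO. These genes were low, their sum running from 29.7 to 222 CPM in WT and from 19.5 to 140 CPM in *Slc37a2* KO. All 12 had a log2 fold change below 0, with a median of −0.88, and none was called. The 10 tested stromal and osteoblast markers stood at −0.31, 0.23 and 0.61 in WT and −0.55, 0.65 and −0.59 in *Slc37a2* KO, all 10 with a log2 fold change below 0 and none called. Summed, the osteoclast markers ran from 42826 to 61107 CPM in WT and from 47435 to 74871 CPM in *Slc37a2* KO. All 13 had a log2 fold change above 0, and none was called. The macrophage markers ran from 4073 to 4456 CPM in WT and from 4269 to 4394 CPM in *Slc37a2* KO. Of these 8, 2 had a log2 fold change above 0 and 6 below, with a median of −0.37, and none was called. The 2 above 0, *Csf1r* (mean 1881 CPM) and *Cd68* (mean 1780 CPM), were also the most abundant and dominate the sum. No marker of either list was at 0 over the 6 libraries. The part of these lists in the levels of the hydrolase and activator genes was not tested.

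**Figure D5:**
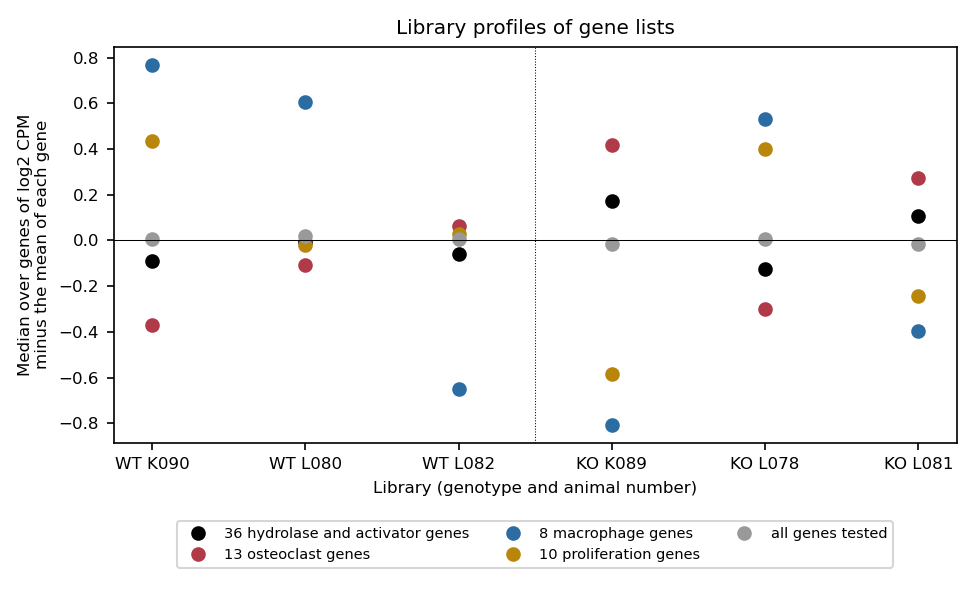
Median over genes of log2 scaled CPM minus the mean of each gene (vertical axis, log2 units) in each library, for the 36 hydrolase and activator genes and for osteoclast, macrophage and proliferation markers and all genes tested. The 36 genes run from −0.13 in L078 to 0.17 in K089, and the 13 osteoclast genes from −0.37 in K090 to 0.42 in K089.

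Since L078 stood apart in these same data, each count was also taken without it. Leaving it out raised such counts over the whole table, from 0.712% to 20.1% of all genes for an unadjusted p below 0.05 by the quasi-likelihood test. The values without L078 therefore follow in part from that choice and are given as a description only. The number of the 36 genes with an unadjusted p below 0.05 then went from 1 to 18 by the quasi-likelihood test, 17 higher and 1 lower in *Slc37a2* KO, against 20.1% of all genes. The libraries of the 2 genotypes did not overlap for 20 of the 36 genes, against 41.6% of all genes. Every *Slc37a2* KO library lay above every WT library for 19 of the 36 genes (52.8%), against 19.6% of all genes. None of the 36 was called, the lowest Benjamini-Hochberg adjusted p being 0.227 by the quasi-likelihood test of edgeR. *Gm2a* had a log2 fold change of 0.39 without L078, *Hexa* of 0.50, *Grn* of 0.40 and *Hgsnat* of 0.94. Without K089 the same genes had 0.24, 0.21, 0.14 and 0.36, and in the L libraries alone 0.20, 0.08, 0.07 and 0.13. *Lgmn* was the 1 gene lower in *Slc37a2* KO in both counts, at −0.48. With any other library left out, 0 of the 36 genes had an unadjusted p below 0.05 and at most 6 did not overlap. These 6, *Ids*, *Arsa*, *Asah1*, *Lipa*, *Galc* and *Ctsd*, appeared without WT L082, where 16.4% of all genes did not overlap, a share like that of the 36 (16.7%). All 6 were lower in *Slc37a2* KO, against 9.41% of all genes, and 0 were higher, against 7.02%.

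Other genes of the pathway were read from 2 lists. Of 30 other soluble lysosomal hydrolases, 26 were tested, 17 had a log2 fold change above 0, the median was 0.03, and none was called, had an unadjusted p below 0.05 or separated the genotypes. The largest differences of this list were −0.94 for *Hpse*, the heparanase, −0.45 for *Rnaset2a*, an acid ribonuclease whose near-identical copy *Rnaset2b* can share its reads, and 0.45 for *Hyal1*, a hyaluronidase. *Hpse* had 18.6, 17.6 and 3.37 CPM in WT and 1.95, 16 and 2.40 CPM in *Slc37a2* KO, so its low libraries were L082, K089 and L081.

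Of 14 genes that tag and sort the hydrolases, 11 had a log2 fold change above 0, the median was 0.06, and none was called or had an unadjusted p below 0.05. *Gnptab*, which encodes the catalytic subunits of the enzyme that starts the mannose 6-phosphate tag, had a log2 fold change of 0.24 (95% interval −0.29 to 0.76). The receptors that carry tagged enzymes, *M6pr* and *Igf2r*, had 0.04 (95% interval −0.14 to 0.22) and 0.06 (−0.20 to 0.33). *Sumf1*, which activates all sulfatases by modifying a cysteine in their active site, had 0.11. *Sort1*, the sortilin receptor, had −0.62 and *Scarb2*, the receptor of glucocerebrosidase, had −0.25, and both had wide intervals that held 0. The genotypes did not overlap for 1 of the 14, against 4.31% of all genes. This was *Sumf2*, a paralogue of *Sumf1* named after its values were seen. Its log2 fold change was −0.10, with an interval that held 0 (95% interval −0.32 to 0.12). It had 18.4 ± 0.404 CPM in WT and 17.2 ± 1.40 CPM in *Slc37a2* KO (SD, n = 3).

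Some of the 36 genes share exonic bases with a neighbour, and whether the counting used strand is not given in the sources used here. *Sgsh* shares 21.6% of its exonic bases with *Card14* on the opposite strand, which had 12514 counts over the 6 libraries against 19390 for *Sgsh*. *Ctsa* shares 10.5% with *Pltp*, and *Glb1* shares 5.49% with *Tmppe* on its own strand. *Idua* shares 2.95% with *Dgkq* and *Ppt1* shares 3.51% with *Cap1*, which had 160988 counts against 16903 for *Ppt1*. *Arsb* shares 32.3% with the non-coding gene Gm26527 and *Ctsd* shares 34.4% with Gm49369, for which no counts were used here. Values of these 7 genes are uncertain by the reads that such overlaps could move.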

How the data were processed

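RNAseq counts of 3 WT and 3 *Slc37a2* KO libraries were analysed. The authors deposited whole-number counts per gene symbol, not normalized, for 22601 genes. According to the labels, reads were demultiplexed with bcl2fastq 2.20.0.422 and the build was mm10. Which aligner, counter and annotation were used is not given in the sources used here. Beside the counts stands the comparison by the authors in edgeR 3.30.3 (fold changes and p-values), which was not used, and neither was their list of 1000 leading genes. 0 columns belonged to other samples.

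Counts were filtered with filterByExpr defaults and TMM-scaled (factors 0.931 to 1.06), and genotype was fitted with glmQLFit and glmQLFTest in edgeR 4.0.16 (R 4.3.3), with Benjamini-Hochberg adjustment over 13483 genes. The prior degrees of freedom were 2.35 and the biological coefficient of variation 20.8%. The fit was tested on simulated data. An exact permutation test of 3 libraries against 3 cannot go below p = 0.1. Lengths are those of principal transcripts of GENCODE M21 (GRCm38, the build mm10 names), or of all exons for genes without a principal transcript. Per-gene log2 levels used a prior count of 2. Alternatives were edgeR's likelihood ratio test, DESeq2 1.42.0, RLE and upper quartile scaling, no filter, a minimum of 1 CPM in 3 libraries, robust fitting, a block by the letter of the animal number, and each library left out. The L libraries alone and the length of all exons were added after seeing the data.

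The members and lists were chosen with earlier results of these data known. Named were all 36 genes, with values in every library for the 5 largest fold changes, the 5 smallest p, the 5 highest and 3 lowest mean CPM and the 3 largest and 3 smallest coefficients of variation, then the 3 largest fold changes of each pathway list and direct partners of members, of which 1 is not reported here.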

Additional observations from a re-analysis of the deposited data

How the results depend on the processing

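No paired analysis was possible because the columns of the count table carry no replicate numbers. The letter of the animal number, whose meaning the headings do not give, was fitted as a block of its own. No member was called in any alternative. Between 24 and 30 of the 36 genes had a log2 fold change above 0 throughout, and 17 kept their sign in every alternative. The median of all genes moved by less than 0.1 under every scaling. With RLE scaling 48.6% of all genes were above 0, against 43.8% with TMM. With a block for the letter of the animal number, 0 members had an unadjusted p below 0.05, against 0.349% of all genes. With the 4 L libraries alone this count was 0 as well, against 0.147% of all genes, 1 member separated the genotypes, against 15.9% of all genes, and 10 of the other hydrolases were above 0. With 1 library left out, the counts ran from 0 to 18 for an unadjusted p below 0.05 and from 0 to 20 for genotypes that did not overlap, the upper ends without L078 of *Slc37a2* KO. The causes were not tested. With the length of all exons in place of the principal transcript, *Ctsd* and *Psap* were again highest per kb and *Galc* lowest.

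In the other fits on all 6 libraries, signs turned for 3 genes. *Asah1* had 0.010 with RLE, 0.0029 with upper quartile scaling and 0.0100 in DESeq2, *Ppt1* had 0.0021 with RLE and 0.0012 in DESeq2, and *Sgsh* had −0.00091 without the filter. With the L libraries alone signs turned for 14 genes, the lowest of the 36, *Lipa*, among them. The log2 fold change was then −0.025 for *Gaa*, −0.00083 for *Gusb*, −0.072 for *Idua*, −0.0023 for *Aga*, 0.035 for *Ids*, −0.034 for *Sgsh*, −0.041 for *Galns*, 0.0097 for *Asah1*, 0.0013 for *Lipa*, 0.14 for *Pla2g15*, −0.023 for *Tpp1*, 0.032 for *Lgmn*, −0.0082 for *Scpep1* and 0.078 for *Acp2*. With 1 library left out the range was −0.098 to 0.022 for *Ids*, −0.020 to 0.016 for *Asah1*, −0.33 to 0.016 for *Pla2g15*, −0.048 to 0.049 for *Ppt1*, −0.047 to 0.14 for *Man2b1*, −0.039 to 0.067 for *Sgsh*, −0.082 to 0.13 for *Ctsd*, −0.030 to 0.0048 for *Manba* and −0.0091 to 0.11 for *Plbd2*.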
